A study of Sus scrofa with 15 samples.

Results

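The genes described here are the nuclear-encoded subunits of the mitochondrial respiratory chain and ATP synthase, measured in pig kidney after warm ischemia with and without remote ischemic preconditioning. They were chosen by name, under a rule set with earlier results of these data known. It took every pig gene whose symbol begins with NDUF, SDHA, SDHB, SDHC, SDHD, UQCR or ATP5, or with COX followed by a digit from 4 to 8. In the annotation 81 genes met this rule, 27 of them could be assigned to a probe of the array through a RefSeq transcript, and 54 could not. These 27 stood among 3020 genes with a symbol, and each was represented by its probe of highest mean signal. By name 7 belonged to complex I, 2 to complex II, 2 to complex III, 8 to complex IV and 8 to complex V. The array's annotation gives several complex V genes their older names, so that ATP5A1 is the gene now called ATP5F1A, ATP5G1 is ATP5MC1, ATP5G3 is ATP5MC3, ATP5I is ATP5ME and ATP5O is ATP5PO.

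The respiratory chain sits in the inner mitochondrial membrane. Complexes I and II take electrons from NADH and succinate, complex III passes them to cytochrome c, complex IV hands them to oxygen, and the proton gradient built on the way drives ATP synthase, which is complex V. Subunits of all but complex II are encoded partly in the nucleus and partly in the mitochondrial genome, and in the kidney the tubules that reabsorb solute depend heavily on this machinery.

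The animals were 15 female Yorkshire pigs, 20 weeks old, in which the left kidney had been removed 1 week before the experiment, so every group was a single-kidney model. The control group (5 pigs) underwent 90 min of warm ischemia of the remaining right kidney without preconditioning. The rIPCe group (5 pigs) received 2 cycles of 10 min clamping and 10 min reperfusion of the right external iliac artery directly before the same ischemia, and the rIPCl group (5 pigs) received the same cycles 24 h before it. Kidney tissue was taken at 72 h, with no statement of cortex or medulla, and there was no group without ischemia, so all values below compare injured kidneys with each other.

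One single-colour array was hybridised per pig. Between 62.2% and 69.5% of spots were well above background on the control arrays, 67.4% to 73.9% on the rIPCe arrays and 71.8% to 74.2% on the rIPCl arrays, and no spot was saturated. Of the nephron markers, 10 of 16 for the proximal tubule and 5 of 10 for the thick ascending limb and distal tubule had a probe, and all of these were above background on all 15 arrays. The arrays lay on 4 slides that nearly coincided with the groups. Slide 1 held control 1 to 4, slide 2 held control 5 and rIPCe 1 to 3, slide 3 held rIPCe 4, rIPCe 5 and rIPCl 1, and slide 4 held rIPCl 2 to 5.

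Most subunit genes were lower in the preconditioned kidneys than in the control group, by small amounts. In rIPCl versus control, 4 of the 27 fell with an adjusted p under 0.05 (limma, Benjamini-Hochberg over all 43603 probes), namely NDUFB6, NDUFC1, ATP5G3 and ATP5I, beside 3.58% of all probes called lower, and none rose, beside 2.69% called higher. At an unadjusted p under 0.05, 18 of 27 were lower, beside 14% of all probes, and none was higher, beside 12.8%. Among the 3020 genes with a symbol the corresponding share that was lower was 17.3%. The median log2 fold change of the 27 genes was -0.33, against -0.02 for all genes with a symbol, and 25 of them lay below 0 (24 when background was corrected with normexp). When arrays were scaled to the 75th percentile in place of quantile normalization, 22.3% of all probes were lower at an unadjusted p under 0.05, the median of all probes moved to -0.11, and 8 subunit genes passed the adjusted threshold, all lower, with COX8H among them and without ATP5G3, while the number of all probes called in either direction was 7728 of 43603, against 1563 lower and 1173 higher with quantile normalization. In bulk tissue such as this, fewer cells of a type and less RNA per cell cannot be told apart.

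No subunit gene had a fold change of at least 2, the size the study asked for, whereas 5.83% of all probes had one together with an unadjusted p under 0.05 in rIPCl versus control. The lowest ratio to control was 0.596 and the highest 1.20. One of the 27, COX8H, was not well above background on any array, so it is given without a fold change. Without it, 24 of 26 genes were lower, 17 of 26 at an unadjusted p under 0.05, and the median was -0.32.

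These counts depended on single arrays and on the slides. Without control 2, control 3, rIPCl 3, rIPCl 4 or rIPCl 5, 0 subunit genes passed the adjusted threshold. In these fits 217, 507, 172, 74 and 28 of all 43603 probes passed it in either direction. With all arrays 1563 probes were called lower and 1173 higher. Without control 4 or rIPCl 2 the count of subunit genes was 2, beside 904 and 987 probes. Without control 5 it was 7, beside 4787 probes, and without rIPCl 1 it was 9, beside 4931. The count of subunit genes at an unadjusted p under 0.05 ran from 12 without rIPCl 3 to 20 without control 5 or rIPCl 1. Beside these stood 9583, 13057 and 12927 of all probes in either direction. With slide as a block, 0 subunit genes passed the adjusted or the unadjusted threshold, beside 479 and 5650 of all 43603 probes in either direction. Of the 27 genes 19 lay above 0, with a median of 0.10 against -0.01 for all probes. That estimate was made from slides 2 and 3, where control 5 was the one control array and rIPCl 1 the one rIPCl array, beside the 5 rIPCe arrays. With slide as a random block, 0 genes passed the adjusted and 5 the unadjusted threshold, beside 0 and 6260 of all 43603 probes. The part of the slide in the difference was not tested further, and for most arrays slide and group cannot be told apart.

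The rIPCe group lay on the same side of the control group. There 0 of 27 genes passed the adjusted threshold, as did 0.00229% of all probes in either direction, and 10 of 27 were lower at an unadjusted p under 0.05, beside 8.65% of all probes lower and 5.45% higher. Of the 27 genes 24 lay below 0, with a median log2 fold change of -0.25 against -0.03 for all genes with a symbol. The unadjusted count was 6 without control 3 and 17 without control 5, beside 5142 and 7953 of all 43603 probes. It was 0 with slide as a block and 4 with slide as a random block, beside 5163 and 4135. With the fixed slide block 1189 of all probes passed the adjusted threshold in either direction, and no subunit gene did. On slide 2, the only slide that held both groups, 17 genes were lower and 10 higher in the 3 rIPCe arrays than in the single control array, with a median of -0.05. Both comparisons use the same control arrays and are therefore not independent of each other.

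**Figure D1:**
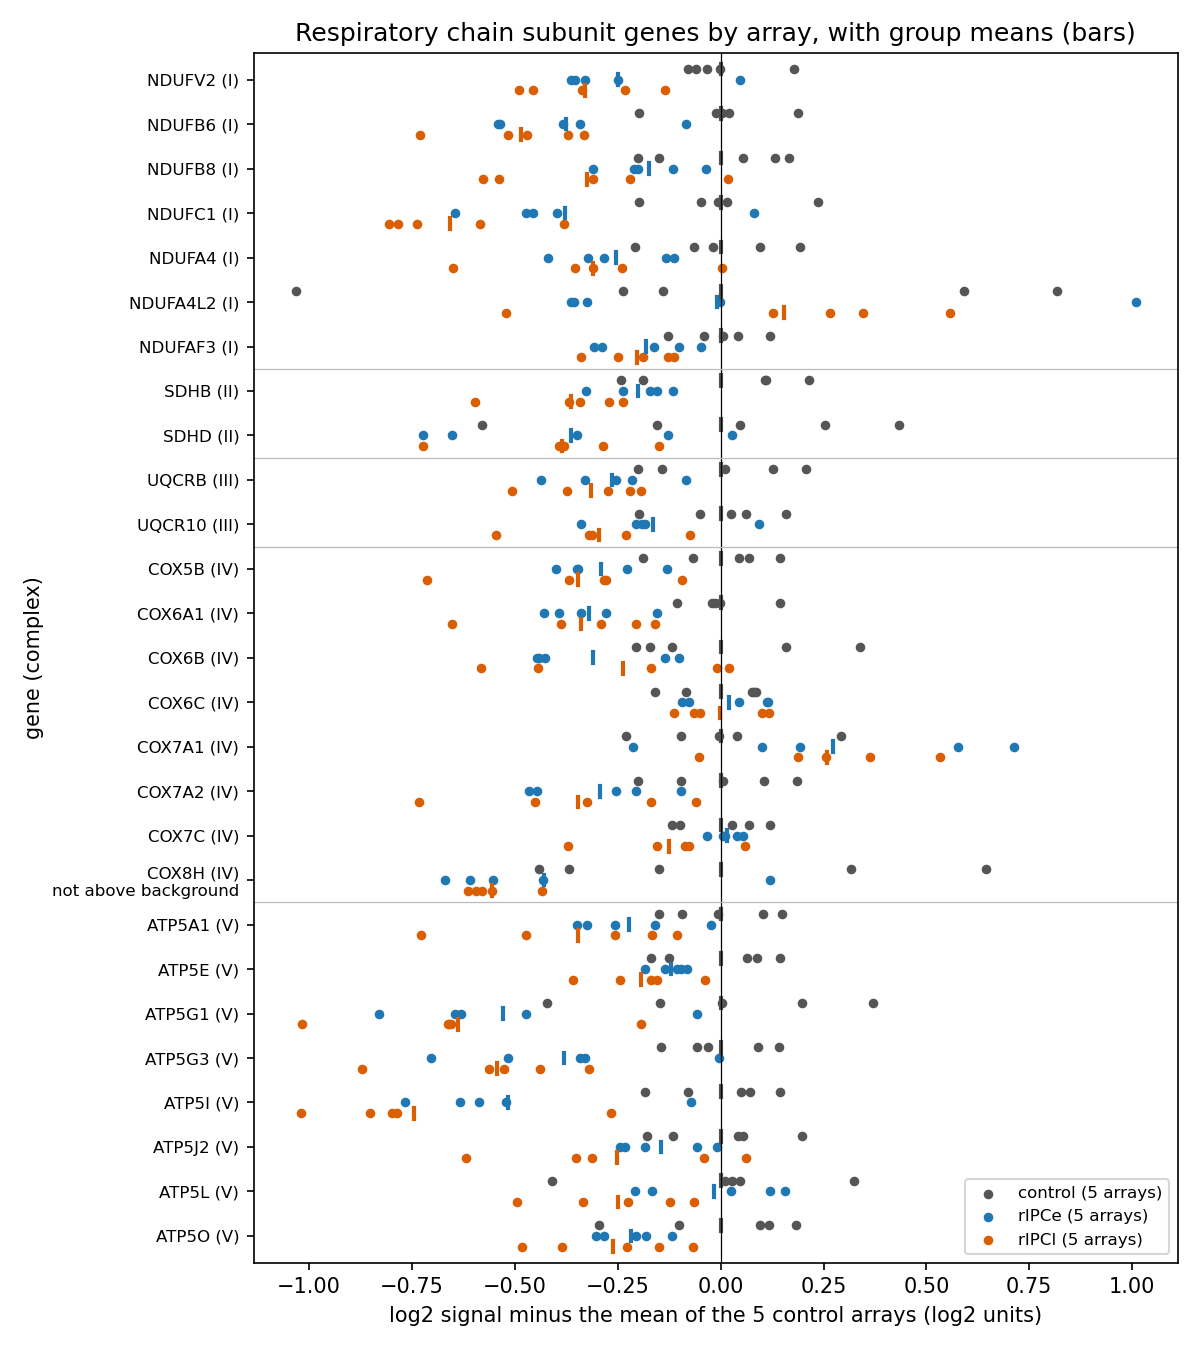
Log2 signal of each of the 27 subunit genes on each array, as the difference from the mean of the 5 control arrays (x axis, log2 units), with 1 line per gene grouped by complex. Points are arrays, short bars are group means, and for 6 genes (NDUFV2, NDUFB6, NDUFC1, COX6A1, ATP5G3 and ATP5I) all 5 rIPCl points lie below all control points.

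All 5 rIPCl arrays lay below all 5 control arrays for 6 genes, beside 6.76% of all probes. In rIPCe this held for COX6A1 alone, beside 2.73% of all probes. The values that follow are quantile-normalized log2 signals in the order of the replicates, with 5 arrays per group, and fold changes are differences of group means with the standard error (SE) of the fit. Exact permutation tests were two-sided, and with 5 against 5 arrays they cannot give a p below 0.00794.

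Complex I had 7 genes, 6 of which were lower in rIPCl at an unadjusted p under 0.05, and 2 of these, NDUFB6 and NDUFC1, passed the adjusted threshold. NDUFC1, an accessory subunit of the membrane arm, read 14.03, 14.07, 14.32, 14.10 and 13.88 in the control group, 14.16, 13.61, 13.62, 13.68 and 13.43 in rIPCe, and 13.70, 13.34, 13.28, 13.30 and 13.49 in rIPCl. Every rIPCl array was below the lowest control array, as were 4 of 5 rIPCe arrays, while rIPCe 1 sat within the control range. The log2 fold change of NDUFC1 was -0.66 (SE 0.14, adjusted p = 0.0255, exact p = 0.00794) in rIPCl and -0.38 (SE 0.14, adjusted p = 0.256, exact p = 0.0397) in rIPCe. NDUFB6, another accessory subunit of the membrane arm, read 13.78, 13.97, 14.17, 13.99 and 14.00 in the control group, 13.90, 13.60, 13.64, 13.44 and 13.45 in rIPCe, and 13.65, 13.47, 13.25, 13.61 and 13.51 in rIPCl. Again only rIPCe 1 among the preconditioned arrays reached the control range. Its log2 fold change was -0.48 (SE 0.11, adjusted p = 0.0329, exact p = 0.00794) in rIPCl and -0.38 (SE 0.11, adjusted p = 0.212, exact p = 0.0159) in rIPCe.

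NDUFV2, an iron-sulfur subunit of the module that oxidises NADH, was the core subunit of complex I that could be read. It gave 14.52, 14.56, 14.78, 14.60 and 14.54 in the control group, 14.64, 14.35, 14.27, 14.24 and 14.24 in rIPCe, and 14.46, 14.14, 14.11, 14.37 and 14.26 in rIPCl. The rIPCl arrays were all below the control arrays, with a log2 fold change of -0.33 (SE 0.11, adjusted p = 0.0725, exact p = 0.00794). In rIPCe the difference was -0.25 (SE 0.11, adjusted p = 0.318, exact p = 0.0397), with 4 arrays below the control range and rIPCe 1 inside it. NDUFB8, an accessory membrane-arm subunit, was at -0.33 (SE 0.12, adjusted p = 0.115) in rIPCl and -0.17 (SE 0.12, adjusted p = 0.540) in rIPCe. The assembly factor NDUFAF3, which helps to build complex I and is not part of it, was at -0.20 (SE 0.09, adjusted p = 0.153) and -0.18 (SE 0.09, adjusted p = 0.369).

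NDUFA4 and NDUFA4L2 are related genes, and neither passed the adjusted threshold. NDUFA4, which carries a complex I name and is found with complex IV, read 16.86, 16.98, 17.08, 16.82 and 16.67 in the control group, 16.56, 16.46, 16.60, 16.77 and 16.75 in rIPCe, and 16.88, 16.64, 16.23, 16.53 and 16.57 in rIPCl. The highest rIPCl array reached into the middle of the control arrays, and the log2 fold change was -0.31 (SE 0.12, adjusted p = 0.128) in rIPCl and -0.25 (SE 0.12, adjusted p = 0.372) in rIPCe. NDUFA4L2, a paralog known to be induced by hypoxia, gave 6.96, 5.34, 7.19, 6.23 and 6.13 in the control group, 6.05, 7.38, 6.37, 6.01 and 6.01 in rIPCe, and 6.72, 5.85, 6.93, 6.64 and 6.50 in rIPCl. The 3 groups overlapped, apart from rIPCe 2, which was above all other arrays, and with an SE of 0.35 its differences of 0.15 (adjusted p = 0.816) in rIPCl and -0.01 (adjusted p = 0.995) in rIPCe were well within the spread between arrays.

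Complex II consists of nuclear-encoded subunits alone, and 2 of its 4 genes were measured. SDHB, the iron-sulfur subunit, read 14.67, 15.12, 15.02, 15.02 and 14.72 in the control group, 14.79, 14.67, 14.58, 14.74 and 14.76 in rIPCe, and 14.64, 14.67, 14.31, 14.57 and 14.54 in rIPCl. Control 1 was as low as the upper rIPCl arrays, and the log2 fold change was -0.36 (SE 0.11, adjusted p = 0.0595, exact p = 0.0159) in rIPCl and -0.20 (SE 0.11, adjusted p = 0.419) in rIPCe. SDHD, a membrane anchor, gave 13.13, 13.54, 13.72, 13.33 and 12.70 in the control group, 13.31, 13.15, 12.63, 12.93 and 12.56 in rIPCe, and 12.89, 13.00, 12.90, 12.56 and 13.13 in rIPCl. Control 5 lay among the lowest arrays, so the groups overlapped, and the differences of -0.39 (SE 0.20, adjusted p = 0.228) in rIPCl and -0.36 (SE 0.20, adjusted p = 0.418) in rIPCe did not pass.

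Complex III was represented by the small accessory subunits UQCRB and UQCR10. UQCRB read 14.78, 14.99, 15.19, 15.11 and 14.84 in the control group, 14.90, 14.54, 14.73, 14.77 and 14.65 in rIPCe, and 14.76, 14.79, 14.47, 14.71 and 14.61 in rIPCl. UQCR10 read 16.23, 16.33, 16.19, 16.12 and 15.97 in the control group, 16.26, 15.96, 15.99, 15.98 and 15.83 in rIPCe, and 16.09, 15.86, 15.62, 15.94 and 15.85 in rIPCl. For both genes 4 of 5 rIPCl arrays were below the control range. Their log2 fold changes in rIPCl were -0.31 (SE 0.11, adjusted p = 0.0852) for UQCRB and -0.30 (SE 0.11, adjusted p = 0.111) for UQCR10. In rIPCe they were -0.26 (SE 0.11, adjusted p = 0.296) and -0.16 (SE 0.11, adjusted p = 0.520).

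Complex IV is cytochrome c oxidase. Of its 7 genes above background, 6 were lower in rIPCl and 4 in rIPCe, with 3 at an unadjusted p under 0.05 in each. COX6C was so near 0 that its sign turned with the background correction, to 0.17 in rIPCl with normexp. COX6A1, the isoform found in liver and most tissues, read 17.34, 17.51, 17.35, 17.36 and 17.26 in the control group, 17.21, 17.08, 16.93, 17.02 and 16.97 in rIPCe, and 17.20, 17.07, 16.71, 17.16 and 16.97 in rIPCl. It was the gene for which all 10 preconditioned arrays lay below all 5 control arrays. Its log2 fold change was -0.34 (SE 0.10, adjusted p = 0.0622) in rIPCl and -0.32 (SE 0.10, adjusted p = 0.219) in rIPCe, each with an exact p of 0.00794. The structural subunit COX5B gave 17.04, 17.15, 17.25, 17.17 and 16.92 in the control group, 16.97, 16.76, 16.70, 16.75 and 16.88 in rIPCe, and 17.01, 16.74, 16.39, 16.83 and 16.82 in rIPCl. In both groups 4 of 5 arrays were below the control range, with differences of -0.35 (SE 0.12, adjusted p = 0.0793) in rIPCl and -0.29 (SE 0.12, adjusted p = 0.288) in rIPCe.

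The isoforms COX7A1 and COX7A2 lay on opposite sides of 0. COX7A2, the isoform of liver and most tissues, read 16.32, 16.42, 16.60, 16.52 and 16.21 in the control group, 16.32, 16.21, 16.16, 15.97 and 15.95 in rIPCe, and 16.36, 15.96, 15.68, 16.25 and 16.09 in rIPCl, with differences of -0.35 (SE 0.13, adjusted p = 0.116) in rIPCl and -0.29 (SE 0.13, adjusted p = 0.343) in rIPCe and groups that overlapped. COX7A1, the isoform of heart and skeletal muscle, gave 15.01, 15.10, 15.40, 15.14 and 14.87 in the control group, 14.89, 15.21, 15.30, 15.68 and 15.82 in rIPCe, and 15.64, 15.47, 15.05, 15.29 and 15.36 in rIPCl. It was the member with the highest fold change in both comparisons, at 0.26 (SE 0.17, adjusted p = 0.358, exact p = 0.0952) in rIPCl and 0.27 (SE 0.17, adjusted p = 0.488, exact p = 0.190) in rIPCe, and neither passed the test. In each group 2 arrays were above all control arrays. The other heart and muscle isoform, COX8H (now COX8B), read between 1.47 and 2.79 on all 15 arrays and was not well above background on any of them.

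COX6C, COX6B and COX7C are structural subunits of the same enzyme. COX6C gave 15.64, 15.88, 15.89, 15.72 and 15.89 in the control group, 15.71, 15.73, 15.85, 15.92 and 15.92 in rIPCe, and 15.92, 15.75, 15.69, 15.90 and 15.74 in rIPCl. The 3 groups overlapped, and its fold change in rIPCl, -0.00 with a 95% interval from -0.19 to 0.19, was the one nearest 0 among all members. COX7C was at -0.13 (SE 0.09, adjusted p = 0.398) in rIPCl and 0.02 (SE 0.09, adjusted p = 0.957) in rIPCe, with a 95% interval from -0.18 to 0.21 in the latter. COX6B (now COX6B1) read 15.86, 15.95, 16.41, 16.23 and 15.90 in the control group, 15.97, 15.62, 15.93, 15.64 and 15.63 in rIPCe, and 16.09, 15.62, 15.49, 16.06 and 15.90 in rIPCl. It was one of the 2 members with a lower mean in rIPCe than in rIPCl, at -0.31 (SE 0.15, adjusted p = 0.372) and -0.24 (SE 0.15, adjusted p = 0.328), and its groups overlapped.

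In complex V, ATP synthase, all 8 genes had a lower mean than control in both preconditioned groups, 2 passed the adjusted threshold in rIPCl, and 5 in rIPCl and 3 in rIPCe were at an unadjusted p under 0.05. With slide as a block all 8 lay above 0 in rIPCl, and in rIPCe ATP5L was at 0.064 with normexp and ATP5E at 0.14 when its probes were averaged. ATP5I, the membrane subunit e, read 16.67, 16.80, 16.90, 16.82 and 16.57 in the control group, 16.68, 15.99, 16.23, 16.17 and 16.12 in rIPCe, and 16.49, 15.97, 15.73, 15.90 and 15.96 in rIPCl. All rIPCl arrays were below all control arrays, with rIPCl 1 the nearest to them, and rIPCe 1 again lay inside the control range. Its log2 fold change was -0.75 (SE 0.15, adjusted p = 0.0244, exact p = 0.00794) in rIPCl, a ratio of 0.596, and -0.52 (SE 0.15, adjusted p = 0.206, exact p = 0.0238) in rIPCe, a ratio of 0.699.

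ATP5G1 and ATP5G3 encode precursors of the same c subunit, which forms the rotating ring of the enzyme. ATP5G3 gave 17.15, 17.23, 17.38, 17.43 and 17.26 in the control group, 17.29, 16.96, 16.95, 16.77 and 16.59 in rIPCe, and 16.97, 16.76, 16.42, 16.85 and 16.73 in rIPCl. ATP5G1 gave 16.66, 16.51, 17.03, 16.85 and 16.23 in the control group, 16.60, 15.83, 16.18, 16.01 and 16.02 in rIPCe, and 16.46, 16.00, 15.64, 16.00 and 15.99 in rIPCl. In both genes 4 of 5 rIPCe arrays were below the control range, and in rIPCl all 5 arrays were for ATP5G3 and 4 for ATP5G1, where rIPCl 1 was the exception. ATP5G3 fell by 0.54 on the log2 scale (SE 0.14, adjusted p = 0.0363, exact p = 0.00794) in rIPCl and was at -0.38 (SE 0.14, adjusted p = 0.246) in rIPCe. ATP5G1 was at -0.64 (SE 0.19, adjusted p = 0.0547, exact p = 0.0159) in rIPCl and -0.53 (SE 0.19, adjusted p = 0.243, exact p = 0.0317) in rIPCe.

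The catalytic head and the peripheral stalk were each represented by 1 gene. ATP5A1, the alpha subunit of the head, read 16.75, 16.89, 17.05, 17.00 and 16.81 in the control group, 16.88, 16.64, 16.74, 16.58 and 16.55 in rIPCe, and 16.79, 16.43, 16.17, 16.73 and 16.64 in rIPCl, with differences of -0.35 (SE 0.12, adjusted p = 0.0984) in rIPCl and -0.22 (SE 0.12, adjusted p = 0.430) in rIPCe. ATP5O, a peripheral stalk subunit, gave 15.76, 15.55, 15.83, 15.74 and 15.35 in the control group, 15.44, 15.34, 15.47, 15.53 and 15.36 in rIPCe, and 15.58, 15.26, 15.17, 15.42 and 15.50 in rIPCl, with differences of -0.26 (SE 0.11, adjusted p = 0.153) and -0.22 (SE 0.11, adjusted p = 0.393). For ATP5A1, rIPCl 1 and rIPCe 1 lay within the control range, and for ATP5O control 5 was as low as the preconditioned arrays.

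ATP5E (now ATP5F1E), the epsilon subunit of the central stalk, was the gene of this complex nearest 0 in rIPCl. It read 17.10, 17.31, 17.29, 17.37 and 17.05 in the control group, 17.14, 17.04, 17.09, 17.12 and 17.13 in rIPCe, and 17.19, 16.98, 16.86, 17.07 and 17.05 in rIPCl, with differences of -0.19 (SE 0.09, adjusted p = 0.188) and -0.12 (SE 0.09, adjusted p = 0.563). The membrane subunits f, ATP5J2, and g, ATP5L, were at -0.25 in rIPCl (SE 0.13, adjusted p = 0.223, and SE 0.14, adjusted p = 0.260). In rIPCe they were at -0.15 (SE 0.13, adjusted p = 0.626) and -0.02 (SE 0.14, adjusted p = 0.973).

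**Figure D2:**
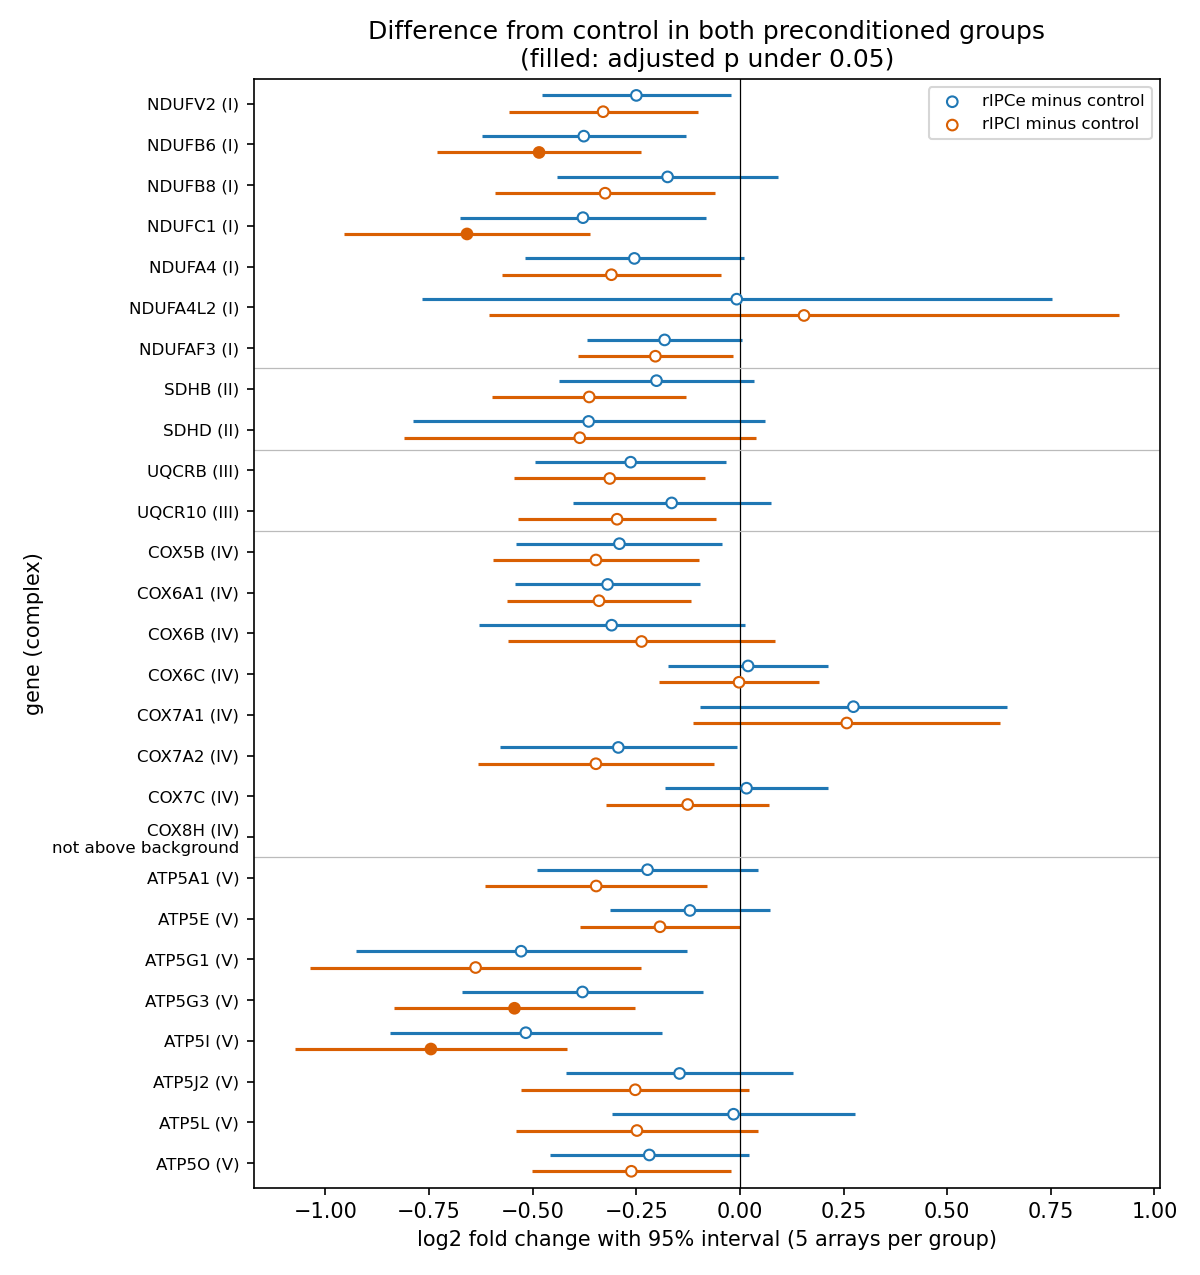
Log2 fold change against control (x axis, log2 units) of the 26 subunit genes above background, grouped by complex, with the 95% interval of the fit, for rIPCe and rIPCl (5 arrays each, against 5 control arrays). The 4 filled points, all rIPCl, mark an adjusted p under 0.05, and COX7A1 stands highest at 0.26 in rIPCl and 0.27 in rIPCe.

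By complex, the median log2 fold change in rIPCl ranged little, from -0.37 in complex II to -0.24 in complex IV among genes above background. Complex I was at -0.33, complex III at -0.31 and complex V at -0.30. In rIPCe the medians were -0.25 for complex I, -0.28 for complex II, -0.21 for complex III, -0.29 for complex IV and -0.22 for complex V. No test of a difference between complexes was made.

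Most genes were covered by more than 1 probe, which gives further readings of those genes from the same RNA and arrays. The 27 genes had 99 probes, 96 of them above background on all arrays, and 21 genes had more than 1. In rIPCl versus control all probes of a gene had the same sign in 17 of these 21, and in rIPCe versus control in 16. For NDUFV2 and SDHD, 4 of 5 probes had an adjusted p under 0.05 in rIPCl although the probe of highest signal did not, and their 5 probes ranged from -0.50 to -0.33 and from -0.73 to -0.39. The 14 probes of ATP5A1 ranged from -0.47 to -0.30, with 2 called, the 7 of SDHB from -0.51 to -0.33, with 2 called, and the 2 of ATP5I were at -0.75 and -0.73, both called.

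The exceptions were NDUFA4, COX7C, ATP5E and COX8H. The 6 probes of NDUFA4 were spread from -0.31 to 0.14 in rIPCl, with 3 on each side of 0, and the one used was the lowest, so its difference is uncertain. COX7C ranged from -0.17 to 0.12 and ATP5E from -0.19 to 0.07. COX6C, whose chosen probe was at 0.00 after rounding, had all 3 probes between -0.11 and that value. When all probes of a gene were averaged, 7 genes passed the adjusted threshold in rIPCl in place of 4.

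**Figure D3:**
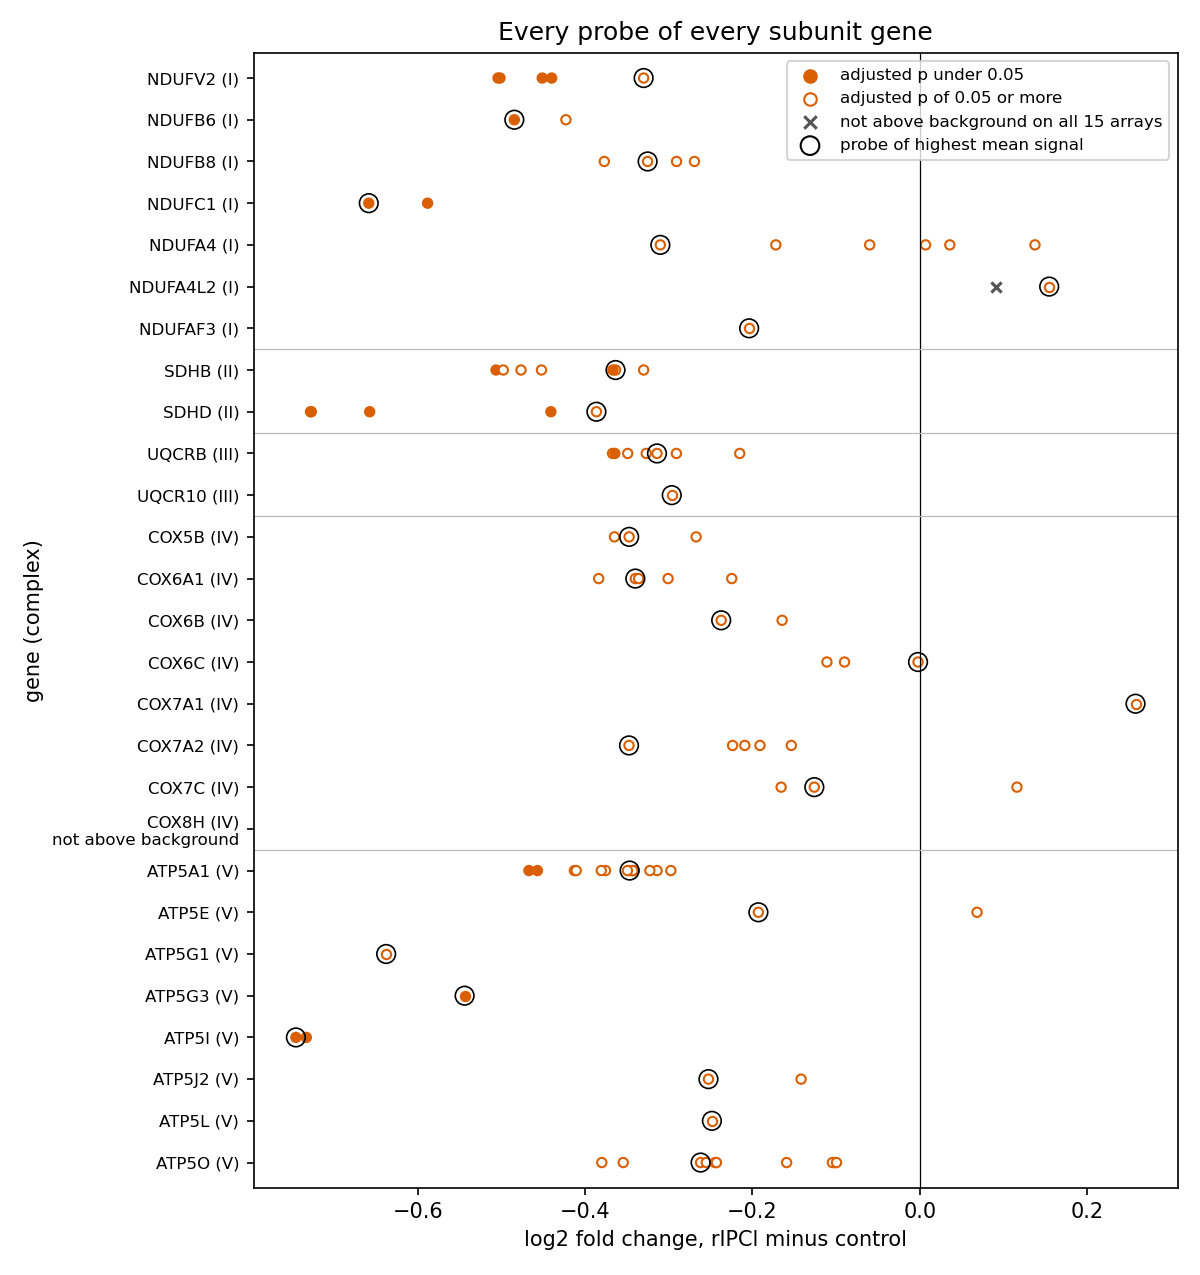
Log2 fold change of rIPCl against control (x axis, log2 units) for every probe of the 26 subunit genes above background, with 1 line per gene. Filled points have an adjusted p under 0.05, the ringed point is the probe of highest mean signal and the cross is a probe not above background on all 15 arrays. The 6 probes of NDUFA4 spread over both sides of 0, while those of NDUFV2, SDHD and ATP5A1 stay below it.

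The preconditioned groups were also compared with each other. Of the 27 genes 25 had a lower mean in rIPCl than in rIPCe, with a median difference of -0.08 (24 with the 75th percentile and 21 with normexp), and 0 passed the adjusted threshold, as did 0% of all probes. At an unadjusted p under 0.05 the count was 0 of 27 as well, beside 3.85% of all probes in either direction. The largest difference was that of NDUFC1, at -0.28 with a 95% interval from -0.58 to 0.02, followed by ATP5L at -0.23 (-0.53 to 0.06) and ATP5I at -0.23 (-0.56 to 0.10). The exceptions in direction were COX6B at 0.07 and NDUFA4L2 at 0.16. When rIPCl 3 was left out, 18 genes were lower and 9 higher in rIPCl, with a median of -0.02. The direction turned on slide 3, the only slide with arrays of both groups, where 23 genes were higher and 4 lower in the single rIPCl array than in the 2 rIPCe arrays, with a median of 0.18. The 95% intervals of all 27 genes leave room for differences of either sign, and the genes cannot be called alike in both windows.

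The shift was not the same on every array of a group. The median deviation of the 27 genes from the control mean was -0.10, 0.03, 0.18, 0.04 and -0.18 on control 1 to 5, -0.08, -0.28, -0.25, -0.32 and -0.33 on rIPCe 1 to 5, and -0.09, -0.35, -0.58, -0.23 and -0.31 on rIPCl 1 to 5. One array of each preconditioned group, rIPCe 1 and rIPCl 1, lay inside the control range, and the other 8 lay below it. By single genes, the number of the 27 below all control arrays was 4, 20, 17, 13 and 16 on rIPCe 1 to 5. On rIPCl 1 to 5 it was 8, 20, 23, 17 and 18. The share of all probes below all control arrays was not counted for single arrays. The median deviation over all genes with a symbol stayed between -0.11 and 0.02 on all arrays.

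**Figure D4:**
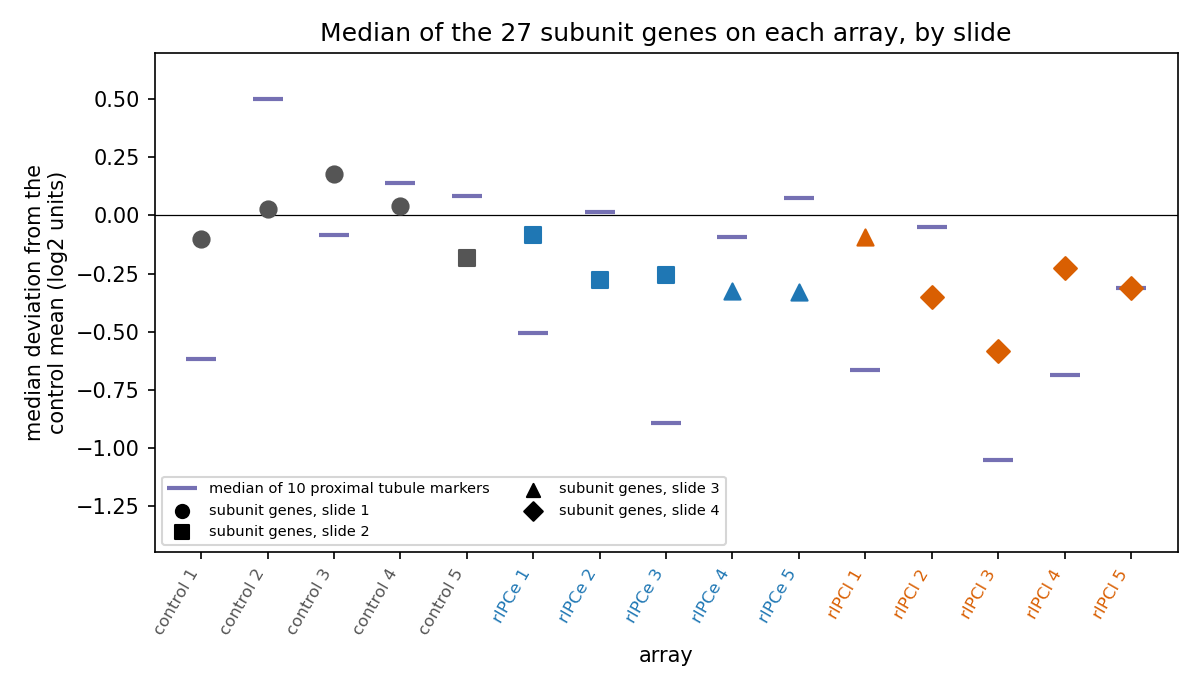
Median deviation of the 27 subunit genes from the control mean on each of the 15 arrays (y axis, log2 units), with the marker shape giving the slide and the colour the group. Purple dashes give the same median for 10 proximal tubule markers. Control 5, at -0.18, is the lowest control array and shares its slide with 3 rIPCe arrays, and rIPCl 1, at -0.09, is the highest rIPCl array and shares its slide with 2 rIPCe arrays.

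Markers of several cell types also differed between the groups, and their part in the differences of the subunit genes was not tested. Of the 10 proximal tubule markers measured, 9 were lower in rIPCl, 2 of them with an adjusted p under 0.05, and the median was -0.66. The exception was GATM, an enzyme of creatine synthesis, at 1.05 (SE 0.39, adjusted p = 0.104). These were SLC7A9, an amino acid transporter subunit, at -1.24 (SE 0.25, adjusted p = 0.0239), and FBP1, an enzyme of gluconeogenesis, at -0.91 (SE 0.23, adjusted p = 0.0386). In rIPCe the median of the list was -0.23, with none called. The median deviation of this list per array ran from -0.62 to 0.50 in the control group, from -0.89 to 0.08 in rIPCe and from -1.05 to -0.05 in rIPCl. The 7 macrophage markers measured had a median of 1.30 in rIPCl and 0.48 in rIPCe, 3 of them in rIPCl called higher (C1QA, C1QB and C1QC). The exception in direction was CD14, at -0.12 in rIPCl and -0.57 in rIPCe, not called in either. Per array the median of this list ran from -0.47 to 0.95 in the control group, from 0.06 to 1.11 in rIPCe and from 0.56 to 1.88 in rIPCl. The 5 fibroblast and pericyte markers had a median of 0.96 in rIPCl, with LUM called higher, and 0.95 in rIPCe, and ran from -0.20 to 0.48, from -0.08 to 1.70 and from 0.02 to 1.28. All 7 T and NK cell markers were higher in rIPCl, with a median of 1.34 and none called, and ran per array from -0.32 to 0.97 in the control group, from -0.61 to 1.28 in rIPCe and from 0.15 to 2.87 in rIPCl. All measured markers of the proximal tubule, macrophage and fibroblast lists were above background on all arrays, as were 5 of the 7 for T and NK cells.

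The 5 markers for the thick ascending limb and distal tubule had a median of -0.09 in rIPCl and -0.23 in rIPCe, with none called. The 5 for the collecting duct had medians of -0.12 and -0.19, with SLC26A4, an anion exchanger of intercalated cells, called lower in rIPCl at -2.27 (SE 0.35, adjusted p = 0.0156). Of these 5, 2 were higher in rIPCl without being called, AQP2 at 0.55 (SE 0.39, adjusted p = 0.379) and SCNN1G at 0.24 (SE 0.37, adjusted p = 0.711). The 4 endothelial markers had a median of 0.21 in rIPCl, with ENG called higher, while PECAM1 was at -0.03 and CDH5 at -0.12. The 3 B cell markers had a median of 0.33 in rIPCl, with CD79A called higher. The 3 neutrophil markers had a median of 0.08 in rIPCl with none called (-0.90 in rIPCe), and WT1, the podocyte marker measured, was at -0.55 in rIPCl (adjusted p = 0.259).

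The subunit genes varied together from kidney to kidney. With group means removed, the median Pearson r over the 351 pairs of members was 0.54 across the 15 arrays, and 91.5% of pairs were above 0. Over all pairs of the 2386 genes with a symbol above background on all arrays the median was 0.03. Pairs from the same complex (79 pairs, median 0.56) and pairs from different complexes (272 pairs, median 0.54) gave close values. COX7A2 and ATP5A1 were the most similar pair, at 0.95. NDUFA4L2, with a median r of -0.10 with the other members, COX7A1 at 0.18 and COX8H at 0.21 stood apart from the rest. These correlations describe arrays that share slides and tissue composition, and no test was made of them.

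Among genes with a symbol outside the family, MMGT1, GOT2, DLAT, PMVK and USB1 followed the mean of the members most closely over the 15 arrays, with Pearson r of 0.97, 0.97, 0.95, 0.95 and 0.94. With group means removed their r was between 0.87 and 0.94. GOT2 is the mitochondrial aspartate aminotransferase, DLAT is a subunit of pyruvate dehydrogenase and PMVK is an enzyme of the mevalonate pathway.

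Genes of neighbouring mitochondrial pathways were read from lists beside the subunits. With slide as a random block 0 of 43603 probes passed the adjusted threshold in rIPCl versus control (6260 at an unadjusted p under 0.05, limma), so the calls named here and among the cell type markers were lost in that fit. Of 11 genes of the TCA cycle and pyruvate dehydrogenase, all were lower in rIPCl, with a median of -0.38, and 2 fell with an adjusted p under 0.05. These were IDH3B, a subunit of isocitrate dehydrogenase, at -0.51 (SE 0.13, adjusted p = 0.0417), and DLD, the dehydrogenase shared by several of these complexes, at -0.46 (SE 0.11, adjusted p = 0.0347). Of 13 genes of mitochondrial fatty acid oxidation, 12 were lower, with a median of -0.56, and 3 fell. They were CPT2, which hands fatty acids over inside the inner membrane, at -1.37 (SE 0.28, adjusted p = 0.0244), the medium-chain dehydrogenase ACADM at -0.85 (SE 0.19, adjusted p = 0.0293), and the reductase DECR1 at -0.56 (SE 0.14, adjusted p = 0.0339). In rIPCe the medians were -0.25 and -0.21 and 0 genes were called in either list.

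All 7 mitochondrial ribosomal proteins were lower in rIPCl, with a median of -0.39, and MRPL58 was called at -0.54 (SE 0.15, adjusted p = 0.0485). CYCS, which is cytochrome c, the carrier between complexes III and IV, was at -0.62 (SE 0.19, adjusted p = 0.0675) in rIPCl and -0.51 (SE 0.19, adjusted p = 0.271) in rIPCe. The 8 carriers and porins had a median of -0.36 in rIPCl with none called. Of 4 import proteins and chaperones, HSPD1, the mitochondrial chaperonin, fell by 0.66 on the log2 scale (SE 0.14, adjusted p = 0.0249), whereas TOMM34, a cochaperone of import, rose by 0.65 (SE 0.15, adjusted p = 0.0305).

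The 7 measured regulators of mitochondrial biogenesis had a median of 0.01 in rIPCl and 0.01 in rIPCe, 4 of 7 above 0 in each, and none was called. TFAM, which maintains and transcribes mitochondrial DNA, was at -0.43 (SE 0.18, adjusted p = 0.149) and SIRT3, a mitochondrial deacetylase, at -0.53 (SE 0.23, adjusted p = 0.154). Of 8 genes of the hypoxia response, 7 were lower in rIPCl with a median of -0.26, and none was called, the lowest unadjusted p being that of PGK1 at -0.31 (SE 0.11, adjusted p = 0.0917). COX10, the assembly factor of complex IV outside the family, was at -0.16 (SE 0.14, adjusted p = 0.495). The 13 subunits encoded in the mitochondrial genome had no probe matched by symbol and were not analysed here.

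**Figure D5:**
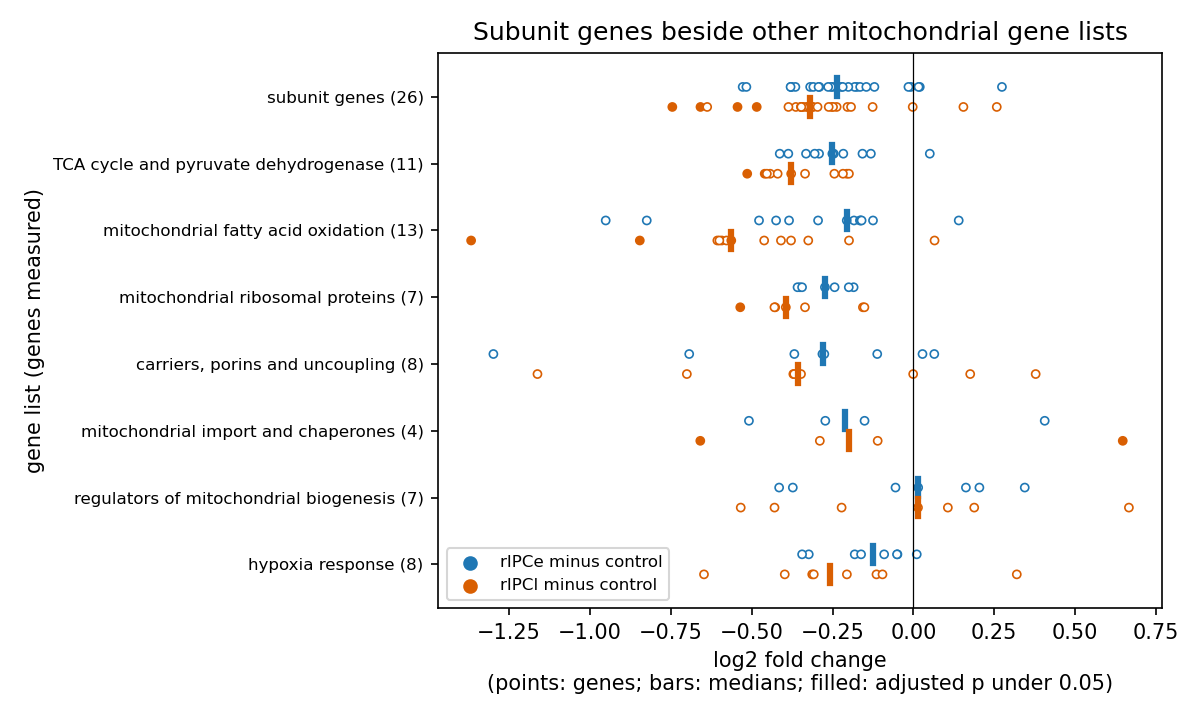
Log2 fold change against control (x axis, log2 units) of the 26 subunit genes above background and of 7 other mitochondrial or hypoxia gene lists, for rIPCe and rIPCl. Points are genes, thick bars are list medians and filled points have an adjusted p under 0.05. The rIPCl medians are -0.32 for the subunit genes, -0.56 for fatty acid oxidation and 0.01 for regulators of biogenesis.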

How the data were processed

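Kidney RNA from 15 pigs was measured with 1 single-colour Agilent array per pig. The authors deposited linear intensities from Agilent Feature Extraction 11.0.1.1 (per the file headers), background-corrected and not normalized between arrays. Control spots (1417 of 45220 per array) and 1 to 70 outlier spots per array were left out. Intensities were put on a log2 scale, quantile normalized as in the study's methods, and averaged over spots of a probe. RefSeq accessions gave 6686 probes a symbol. limma 3.58.1 (R 4.3.3, with the package data.table in version 1.17.8 and figures by matplotlib 3.10.9) was fitted to all 43603 probes and 15 arrays, without a block, after a check on simulated data. The simulated arrays had no slide effect. Of 50 changes of 0.5 on the log2 scale in rIPCl versus control, 4 were recovered, and of 50 changes of 1, 22 were. Exact permutation tests used 252 assignments. The number of arrays limits the precision, and p-values measure the spread between pigs. The normexp alternative used the median spot signal. Members, gene lists and the rule for the genes described in full (core subunits, isoform pairs, all that passed the test, and in each complex the 3 largest changes and the one nearest 0) were chosen with earlier results of these data known. Protein and promoter sequences were not analysed here.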

Additional observations from a re-analysis of the deposited data

Results flagged for a closer look

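In 2 of 84 sets of 5 arrays, covering each subunit gene and the median of all members in each group, 1 array stood far from the other 4 of its group, where chance would mark about 1 in 20 sets. NDUFV2 read 14.64 on rIPCe 1, while the nearest other rIPCe array read 14.35 and the lowest 14.24. NDUFA4L2 read 7.38 on rIPCe 2, while the other rIPCe arrays read from 6.01 to 6.37. Without rIPCe 2 the difference of NDUFA4L2 in rIPCe versus control was -0.26, against -0.01 with it.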

How the results depend on the processing

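Of 4 subunit genes called in rIPCl versus control, the count became 8 with the 75th percentile or with normexp, 7 when a gene's probes were averaged or with a trended and robust prior, 20 with array weights, 2 with the replicate number as a block, and 0 with slide as a fixed or random block. Among all 43603 probes the main fit called 1563 lower and 1173 higher. In either direction, 7728 were called with the 75th percentile, 3238 with normexp and 2876 with the trended and robust prior. Array weights gave 10435, the replicate block 987, the fixed slide block 479 and the random slide block 0, and averaged probes gave 2201 of 39937. Leaving out 1 array gave 0 to 9 subunit genes (0 without control 2, control 3, rIPCl 3, rIPCl 4 or rIPCl 5, 2 without control 4 or rIPCl 2, 7 without control 5 and 9 without rIPCl 1), beside 28 to 4931 of all probes. The unadjusted count of 18 became 0 with slide as a block and 5 with slide as a random block, and 12 to 20 without 1 array. The median was 0.10 with slide as a block and -0.38 to -0.25 without 1 array. In rIPCe versus control the unadjusted count of 10 became 0 with slide as a block, 4 with slide as a random block and 18 with array weights, and 6 (without control 3) to 17 (without control 5) without 1 array. Its median was -0.054 with slide as a block, as within slide 2, and -0.29 to -0.21 without 1 array. Among all 43603 probes the unadjusted count in rIPCl versus control was 5650 with slide as a block and 6260 with slide as a random block. It ran from 9559 (without control 2) to 13057 (without control 5) without 1 array. In rIPCe versus control it was 5163 with slide as a block, 4135 with slide as a random block and 9142 with array weights. There it was 5142 without control 3 and 7953 without control 5. Between the preconditioned groups the unadjusted count of 0 became 1 with the 75th percentile or array weights and 2 with normexp, and 0 to 2 without 1 array (2 without rIPCl 1). Among all 43603 probes that count was 2158 with the 75th percentile, 3474 with array weights, 1837 with normexp and 3154 without rIPCl 1. The median of the subunit genes between these groups was 0.18 with slide as a block and -0.13 to -0.02 without 1 array. The slide block compares arrays within slides 2 and 3 alone, by construction, and causes of the other changes were not tested.

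With slide as a block, 17 differences in rIPCl versus control turned positive, at 0.11 for NDUFV2, 0.19 for NDUFB8, 0.056 for NDUFC1, 0.47 for SDHD, 0.29 for UQCR10, 0.091 for COX5B, 0.024 for COX6A1, 0.40 for COX6B and 0.41 for COX7A2. The others were ATP5A1 at 0.18, ATP5E at 0.10, ATP5G1 at 0.42, ATP5G3 at 0.10, ATP5I at 0.073, ATP5J2 at 0.28, ATP5L at 0.17 and ATP5O at 0.20. In rIPCe versus control the same block gave 0.016 for NDUFB8, 0.46 for NDUFA4L2, 0.33 for SDHD, 0.10 for UQCR10, 0.015 for COX7A2, 0.036 for ATP5E, 0.012 for ATP5J2, 0.053 for ATP5L and 0.065 for ATP5O, and -0.12 for COX6C and -0.11 for COX7C.

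Genes near 0 changed sign under other settings too. In rIPCl, NDUFA4L2 was at -0.059 with array weights and ran from -0.10 to 0.36 without 1 array, and COX6C was at 0.17 with normexp and ran from -0.042 to 0.025. In rIPCe, NDUFA4L2 was at 0.064 with the 75th percentile, 0.053 with slide as a random block and 0.046 with averaged probes, and ran from -0.27 to 0.20. COX6C was at -0.053, -0.014 and -0.024 under the same settings and ran from -0.020 to 0.049. COX7C was at -0.017 with the 75th percentile and -0.028 with slide as a random block and ran from -0.014 to 0.046. ATP5E was at 0.14 with averaged probes, and ATP5L was at 0.064 with normexp and ran from -0.12 to 0.066.

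The replicate numbers did not pair the arrays. Arrays of the same number had correlations of their deviations between -0.26 and 0.07, and 0 of 15 arrays resembled an array of its own number most. With the replicate block 2 of the 4 called genes stayed under the threshold. The deposited table, keeping outlier spots, fitting only the 10 arrays compared and the methods' t-test changed no side of the threshold for any single gene described. The methods' t-test on the same values put 4 subunit genes under the threshold in rIPCl after Benjamini-Hochberg adjustment, and 18 in rIPCl and 15 in rIPCe before it. Signal over background limits COX8H, which was not well above it on any array, and the second probe of NDUFA4L2.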
